A study of Homo sapiens with 4 samples.

Results

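Reference genes are transcripts that are assumed to hold a steady level, so that the amount of another transcript can be given relative to them. The 8 examined here were ACTB, B2M, TBP, HPRT1, PPIA, YWHAZ, GUSB and TUBB, chosen by symbol as common reference genes other than GAPDH. All 8 were among the 20263 genes listed, each under a single Ensembl identifier, and all 8 had enough counts to be tested, as did 14105 genes in total. The mRNA came from HCT116, a human colon cancer cell line in wide use. Cells were grown for 24 h in medium with 10% fetal bovine serum, either with the solvent DMSO (2 libraries) or with N_12 (2 libraries), which the series title calls a nilotinib derivative. The tag for treatment reads HJJ_3_5 in the N_12 libraries, no label states a dose, and no change of genotype is stated for either group. Nor do the labels say whether replicates were separate cultures, so p-values here reflect the spread among these 4 libraries alone, and that spread may be technical.

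A reference gene is read in quantitative PCR or on blots as a denominator, and its choice matters because any change in it is passed on, with the opposite sign, to every gene divided by it. The 8 genes serve mostly unrelated processes, which is why several are often used together, although ACTB and TUBB both belong to the cytoskeleton. They encode a cytoskeletal actin (ACTB), a tubulin (TUBB), a cyclophilin that helps proteins fold (PPIA), a 14-3-3 adaptor that binds phosphorylated proteins (YWHAZ), the light chain of MHC class I (B2M), an enzyme of purine salvage (HPRT1), a lysosomal glycosidase (GUSB) and the TATA-binding protein of transcription initiation (TBP). GAPDH, a glycolytic enzyme gene and the most familiar reference, is the point of comparison.

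The libraries held between 29769568 and 41717938 counts in total. The scaling factors of the TMM method, which assumes that most genes do not differ, lay between 0.98 and 1.02. With this scaling the median log2 fold change of all tested genes was 0.01. A difference shared by all mRNA of a cell would not appear on this scale. In bulk libraries fewer cells with a transcript and less of it per cell cannot be told apart. Of the epithelial markers, KRT8, KRT18, KRT19, EPCAM and CDH1 were present and VIL1 had too few counts to be tested, with a summed level of 3361 to 4501 CPM (counts per 1000000 counts of the library). Leukocyte markers summed to at most 0.887 CPM, with PTPRC and CD3E at 0, and endothelial markers to at most 2.41 CPM. Among the 5 fibroblast markers COL1A2, DCN and LUM were at 0, and COL1A1 made up nearly all of the 55.6 to 63.2 CPM. Between replicates the chi-square of the counts divided by its degrees of freedom was 37.5 in DMSO and 59.7 in N_12, well above sampling noise, so no library was merged with another.

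None of the 8 reference genes was called different between N_12 and DMSO, against 2.25% of all tested genes (0.822% higher and 1.43% lower, edgeR's quasi-likelihood test with a Benjamini-Hochberg adjusted p under 0.05). DESeq2 and limma-voom also called 0 of 8, against 9.83% and 0.929% of all genes with an adjusted p. With edgeR 1 of 8 had an unadjusted p under 0.05, against 21.8%. A missing call does not show that a gene stayed level, so a second rule was applied: a gene was counted as level when the 95% interval of its fold change lay wholly within 1.5-fold in either direction, which is 0.58 on the log2 scale. ACTB, TUBB, PPIA and GUSB met it, and YWHAZ, HPRT1, TBP and B2M did not. This is 4 of 8, beside 32.6% of all tested genes and 42.9% of the 10091 genes whose mean reached 10 CPM. By this rule the reference genes as a set were near the background of abundant genes. Within 2-fold lay 7 of 8, all but B2M, beside 73.2% of tested genes. Within a narrow margin of 0.32 on the log2 scale lay 0 of 8, beside 0.39%.

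**Figure D1:**
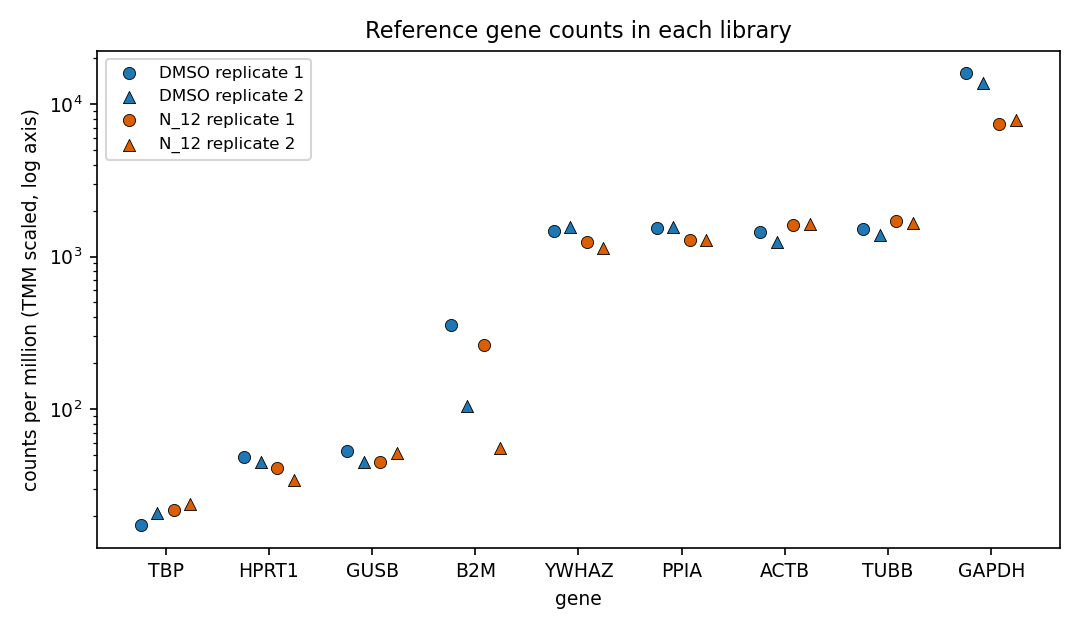
Each point is 1 library: TMM-scaled CPM on a log axis for the 8 reference genes and GAPDH, DMSO in blue and N_12 in orange, replicate 1 as circles and replicate 2 as triangles. The 4 values of each gene lie close together except for B2M, where the replicate 2 libraries (105 and 55.8 CPM) are far below the replicate 1 libraries (354 and 261 CPM), and GAPDH, where both N_12 libraries are below both DMSO libraries.

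The level rule depended on all 4 libraries being kept. Without DMSO replicate 1 no member met it, without DMSO replicate 2 ACTB and TUBB did, without N_12 replicate 1 GUSB and TUBB did, and without N_12 replicate 2 HPRT1, GUSB and TUBB did. Each of these fits has 1 library in a group, and the intervals of ACTB, TUBB, PPIA and GUSB were wider in all 4. PPIA met the rule in none of them, although its log2 fold change stayed between -0.29 and -0.27. Losing the rule here therefore does not show that a level hinged on 1 library. Over all tested genes the share counted as level also fell in each fit. Why the share fell over all genes was not tested. TUBB was the member that met the rule most often, in 3 of these 4 fits. With libraries scaled by total counts alone, ACTB no longer met it and the other 3 did.

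In 6 of 8 members both N_12 libraries lay on the same side of both DMSO libraries, 3 higher (beside 27.9% of tested genes) and 3 lower (beside 26.8%). Groups that do not overlap made up 54.7% of all tested genes, so this is a common outcome here. The members' median absolute log2 fold change was 0.27, beside 0.26 for all tested genes and 0.23 for those whose mean reached 10 CPM.

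The cytoskeletal members were abundant and lay slightly higher in N_12, in all 4 comparisons of an N_12 with a DMSO library. ACTB (ENSG00000075624) had 1444 and 1242 CPM in DMSO replicates 1 and 2 and 1599 and 1625 CPM in N_12 replicates 1 and 2. Both N_12 libraries were above both DMSO libraries, and the DMSO libraries were farther apart than the N_12 ones. The log2 fold change was 0.26 (SE 0.13, 95% interval -0.05 to 0.57, adjusted p = 0.297 by edgeR), or 1.20-fold, from 1343 ± 143 to 1612 ± 18.2 CPM (SD, n = 2). It ranged from 0.16 without DMSO replicate 2 to 0.38 without DMSO replicate 1.

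TUBB (ENSG00000196230), a widely expressed beta tubulin, had 1517 and 1389 CPM in DMSO and 1701 and 1658 CPM in N_12. Again the groups did not overlap, with the N_12 libraries higher. Its log2 fold change was 0.21 (SE 0.13, interval -0.08 to 0.50, adjusted p = 0.373 by edgeR), and leaving out each library in turn kept it between 0.15 and 0.28. The standard deviation of its log2 CPM over the 4 libraries was 0.13, and 23.4% of the genes with at least 10 CPM had a smaller one.

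The families of these genes showed no common direction. Of 4 tested actins none was called, and ACTG1, the other cytoplasmic actin, had a log2 fold change of -0.16 (interval -0.48 to 0.15), with overlapping groups. Of 8 tested beta tubulins none was called, the median was -0.06, and 5 met the level rule. TUBB4B, the next most abundant, was at 993 and 890 CPM in DMSO and at 640 and 772 CPM in N_12 (-0.42, interval -0.75 to -0.08, adjusted p = 0.157 by edgeR). Of 6 tested alpha tubulins, the partners of beta tubulin in the microtubule dimer, none was called and none met the level rule. The most abundant, TUBA1B, had 905 and 613 CPM in DMSO and 582 and 1069 CPM in N_12, so replicates of each group differed more than the groups did.

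PPIA (ENSG00000196262), which encodes cyclophilin A, the target of cyclosporin, had the closest replicates of the 8. It stood at 1548 and 1558 CPM in DMSO and at 1278 and 1290 CPM in N_12. The N_12 libraries were lower, by far more than either pair of replicates differed. The log2 fold change was -0.27 (SE 0.12, interval -0.56 to 0.01, adjusted p = 0.241 by edgeR), from 1553 ± 6.62 to 1284 ± 9.01 CPM (SD, n = 2). This was steady on leaving out libraries, from -0.29 to -0.27. The test borrows its spread from other genes, so the small gap between these replicates does not set the error. Of 17 tested cyclophilins none was called, the median was 0.03 and 8 met the level rule. PPIB, a cyclophilin of the endoplasmic reticulum also used as a reference, had a log2 fold change of -0.48 (interval -0.78 to -0.19, adjusted p = 0.0926 by edgeR).

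PPIA and GAPDH had lower CPM in both N_12 libraries, GAPDH by a called difference, and their upstream sequences are shown because they were the windows in this set with a match to either of 2 short motifs. Windows of 250 bases upstream of an annotated transcription start, from RefSeq (GRCh38.p14), were found for B2M, TBP, HPRT1, PPIA, GUSB, TUBB and GAPDH. For each gene only the first listed start was used, which need not be its main start, and windows at any other start were not searched. Entries for ACTB and YWHAZ were not used here. Searched on both strands were TATAAA, which TBP binds, and ACGTG, the core of the site of the hypoxia-inducible factor, which overlaps the E-box CACGTG. Among 27305 such windows of all genes 11.1% held TATAAA and 18.7% held ACGTG. The PPIA window held each of them 1 time, starting 31 and 37 bases before the start, and the GAPDH window held the palindrome CACGTG, which counts as 2 matches to ACGTG. The other 5 windows held neither, among them that of HPRT1, which also had lower CPM in both N_12 libraries. Whether either motif bears on these levels was not tested. The lines below give both 5′ to 3′ on the plus strand, matches in capitals, at chr7:44796431-44796680 for PPIA and chr12:6535014-6535263 for GAPDH.
PPIA: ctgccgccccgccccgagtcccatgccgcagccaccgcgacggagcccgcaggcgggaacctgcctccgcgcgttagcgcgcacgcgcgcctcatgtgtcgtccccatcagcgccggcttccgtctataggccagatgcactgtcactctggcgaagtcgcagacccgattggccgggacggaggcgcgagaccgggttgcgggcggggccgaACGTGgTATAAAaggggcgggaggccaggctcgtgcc
GAPDH: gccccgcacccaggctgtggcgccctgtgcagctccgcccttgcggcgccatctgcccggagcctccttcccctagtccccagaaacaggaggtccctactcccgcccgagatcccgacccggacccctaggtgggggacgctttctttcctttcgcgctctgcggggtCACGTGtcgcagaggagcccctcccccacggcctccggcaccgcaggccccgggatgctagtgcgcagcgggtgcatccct

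YWHAZ (ENSG00000164924), 14-3-3 zeta, was the member with the smallest unadjusted p. It had 1474 and 1570 CPM in DMSO and 1248 and 1132 CPM in N_12, with both N_12 libraries below both DMSO libraries. The log2 fold change was -0.36 (SE 0.13, interval -0.65 to -0.06, adjusted p = 0.169 by edgeR), and it ranged from -0.44 to -0.29 when each library was left out. Its unadjusted p was 0.0252, the 1 member with an unadjusted p under 0.05, beside 21.8% of all tested genes. The interval leaves out 0, but the adjusted p was not under 0.05, so YWHAZ was not counted as different. Since the interval passes beyond 1.5-fold, it was not counted as level either. Among the 7 tested 14-3-3 genes none was called, the median was -0.20, and YWHAG, YWHAH, YWHAQ and SFN met the level rule.

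HPRT1 (ENSG00000165704), hypoxanthine-guanine phosphoribosyltransferase, was much less abundant. It stood at 48.9 and 45.3 CPM in DMSO and at 41.3 and 34.2 CPM in N_12. The N_12 libraries were the lower ones, and they differed from each other by more than the DMSO libraries did. The log2 fold change was -0.32 (SE 0.16, interval -0.70 to 0.06, adjusted p = 0.303 by edgeR). It was -0.48 without N_12 replicate 1 and -0.19 without N_12 replicate 2, so its size rested on which N_12 library was kept. Of 7 tested purine salvage genes none was called, 6 lay below 0 and the median was -0.23. PNP, purine nucleoside phosphorylase, had the most counts of them and a log2 fold change of -0.53 (interval -0.86 to -0.20, adjusted p = 0.0954 by edgeR).

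GUSB (ENSG00000169919), beta-glucuronidase, was the member nearest to no difference. Its values were 53.6 and 45.0 CPM in DMSO and 45.4 and 51.6 CPM in N_12. The groups overlapped fully, each holding 1 higher and 1 lower library. Its log2 fold change was -0.02 (SE 0.16, interval -0.40 to 0.36, adjusted p = 0.954 by edgeR), and 4.79% of all tested genes had a smaller absolute value. The sign has no weight, since it changed with total-count scaling (0.03) and without DMSO replicate 1 (0.11) or N_12 replicate 1 (0.05). Of 14 lysosomal glycosidases none was called and 9 met the level rule, with a median of -0.06. GAA, the acid alpha-glucosidase and the most abundant of them, had a log2 fold change of -0.09 (interval -0.42 to 0.23).

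TBP (ENSG00000112592) was the least abundant member, with 529 and 610 counts in DMSO and 926 and 968 in N_12. Scaled, these were 17.3 and 20.7 CPM in DMSO and 22.0 and 23.7 CPM in N_12, with both N_12 libraries higher. The gap from the higher DMSO library to the lower N_12 library was smaller than the gap between the DMSO libraries. The log2 fold change was 0.26 (SE 0.17, interval -0.13 to 0.66, adjusted p = 0.402 by edgeR), and 0.14 without DMSO replicate 1. The interval passes 1.5-fold on the upper side only. Of 27 tested genes of TFIID and other TBP partners none was called, 15 lay above 0 and 12 met the level rule, with a median of 0.11. TAF1D, a TBP-associated factor of RNA polymerase I, had the most counts, at 201 and 199 CPM in DMSO and 161 and 99.8 CPM in N_12.

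**Figure D2:**
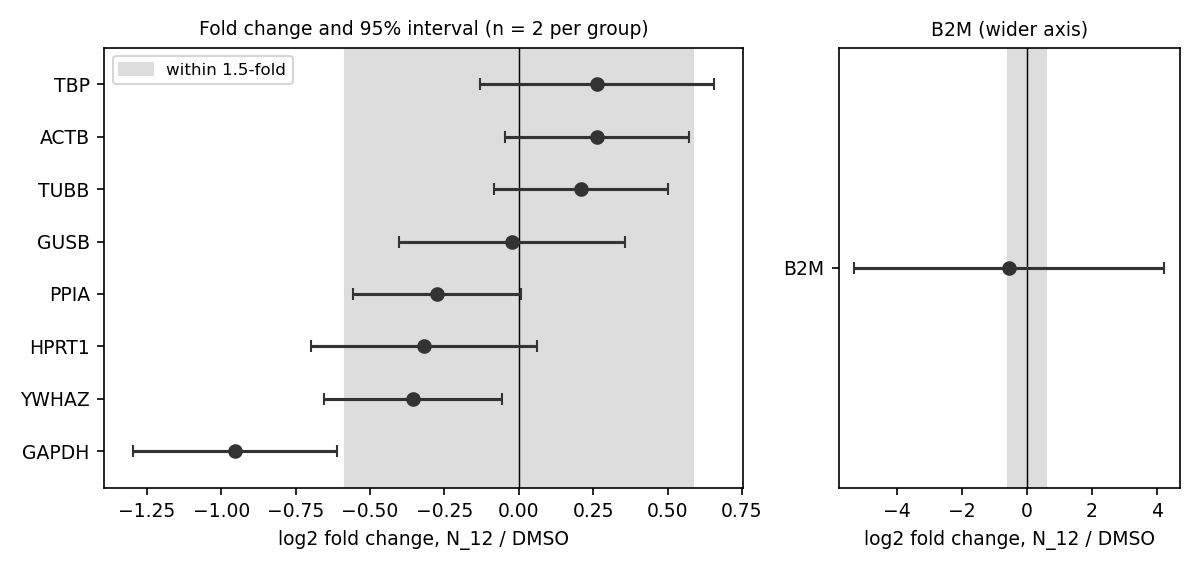
Log2 fold change of N_12 over DMSO (points) with 95% intervals (bars) by edgeR for 7 reference genes and GAPDH on the left and for B2M on a wider axis on the right, 2 libraries per group. The shaded band marks 1.5-fold in either direction. The bars of ACTB, TUBB, PPIA and GUSB lie inside it, that of GAPDH lies wholly outside it, and that of B2M runs from -5.31 to 4.24.

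B2M (ENSG00000166710) stood apart from the other members by its replicates. It had 10805 and 11005 counts in DMSO replicate 1 and N_12 replicate 1, but 3083 and 2274 in DMSO replicate 2 and N_12 replicate 2. In CPM these were 354 and 105 in DMSO and 261 and 55.8 in N_12. Both replicate 1 libraries were above both replicate 2 libraries, by 3.38-fold within DMSO and 4.68-fold within N_12, while the groups overlapped. The standard deviation of its log2 CPM over the 4 libraries was 1.22, and 99.5% of genes with at least 10 CPM had a smaller one. The log2 fold change of -0.53 (SE 1.27, interval -5.31 to 4.24, adjusted p = 0.857 by edgeR) had by far the widest interval of the 8. It was -2.05 without N_12 replicate 1 and 0.60 without DMSO replicate 1. At each replicate number N_12 was below DMSO, but the labels do not say that these numbers pair libraries. The fit with a term for replicate number is given at the end.

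No other member showed this. The replicate 1 to replicate 2 difference of the other 7 lay between -0.26 and 0.25 on the log2 scale in DMSO and between -0.19 and 0.27 in N_12. Among the 10091 genes whose mean reached 10 CPM the median absolute difference between replicates was 0.14 in DMSO and 0.19 in N_12. In 14 of them replicate 1 was over replicate 2 by more than 1 on the log2 scale in both groups, and in 8 it was under it by as much. In 32 the difference passed 1 in both groups but in opposite directions. In 3 of the 14 the difference was at least as large as for B2M in both groups, counting B2M itself. The others were MICOS10-NBL1, a read-through gene, and ENSG00000283782, both of which were named after their values were seen.

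Heavy chain genes of MHC class I, whose products B2M pairs with, showed no such difference between replicates. HLA-B was at 388 and 335 CPM in DMSO and at 227 and 267 CPM in N_12. HLA-C was at 424 and 365 CPM in DMSO and at 243 and 259 CPM in N_12. In both genes the N_12 libraries were the lower ones and the replicates lay close together, although neither was called (adjusted p = 0.0926 and 0.0535 by edgeR). Of the 9 tested genes of this group, B2M included, 1 was called higher (11.1%, beside 0.822% of all tested genes). This was HFE, an MHC class I-like protein that regulates iron uptake. Its level was 3.82 ± 0.586 CPM in the DMSO and 10.2 ± 0.412 CPM in the N_12 libraries (SD, n = 2). HFE had a log2 fold change of 1.42 with adjusted p = 0.0207 by edgeR, at a low mean of 7.01 CPM over the 4 libraries. It lost this call without either N_12 library, where edgeR called 0 genes in all, with 2855 and 2763 genes at an unadjusted p under 0.05. None of the group was called lower, 6 lay below 0, and the median was -0.39.

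**Figure D3:**
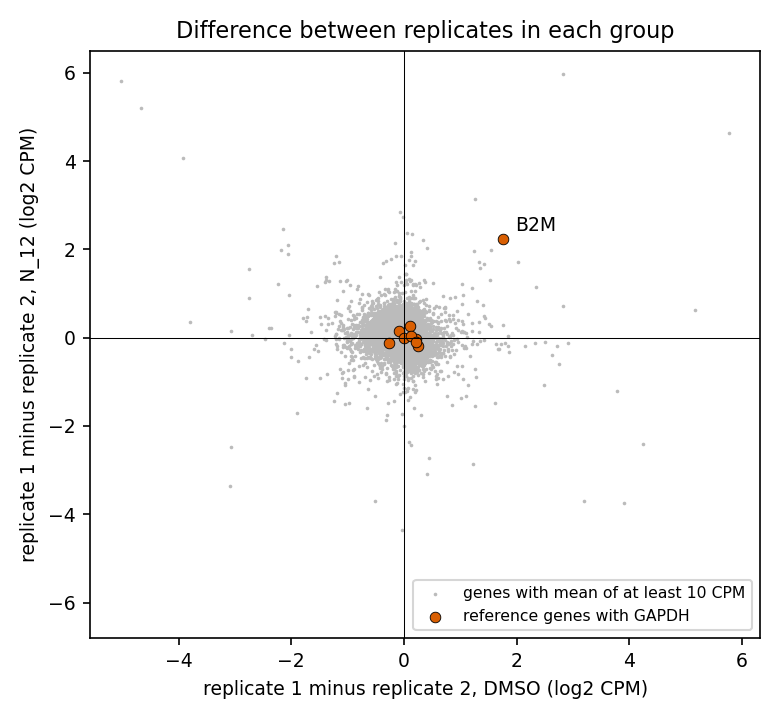
Difference between replicate 1 and replicate 2 in log2 CPM, DMSO on the x axis and N_12 on the y axis, for genes whose mean reached 10 CPM (grey) and for the 8 reference genes with GAPDH (orange). B2M lies at 1.76 and 2.23, and the other orange points lie within 0.27 of 0 on both axes.

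How well reads can be told apart from copies differs among the members, and neither read length, aligner nor the treatment of multiple matches is given in the sources used here. Of the 50-base stretches of a principal transcript (GENCODE release 29), the share also found exactly in transcripts of other genes was 19.0% for PPIA, 18.2% for TUBB, 17.8% for YWHAZ and 10.9% for ACTB. It was 1.7% for GUSB, 1.5% for TBP and 0% for HPRT1 and B2M. For GAPDH it was 19.4%. With 100-base stretches it was 12.0% for PPIA, 7.0% for YWHAZ, 5.1% for TUBB, 0.2% for ACTB and 0% for the other members and GAPDH. RefSeq names 87 pseudogenes of PPIA, 19 of GUSB, 14 of ACTB, 11 of TUBB, 10 of YWHAZ and 3 of HPRT1, and none of them has a row in the deposited table. Counts of PPIA, TUBB and YWHAZ, and with short reads of ACTB and GAPDH, are therefore uncertain where reads match more than 1 gene. B2M, like HPRT1, has no such stretch, and none of the members or GAPDH shares exon bases with another listed gene on either strand. What sets the replicate difference of B2M was not tested.

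Levels can be compared between genes only per length of transcript. With the median length of the principal transcripts, the DMSO mean was 741 CPM per kilobase for ACTB, 694 for PPIA, 544 for TUBB, 525 for YWHAZ, 212 for B2M, 33.5 for HPRT1, 21.4 for GUSB and 10.1 for TBP, beside 10927 for GAPDH. ACTB and PPIA overlapped in their DMSO libraries, and so did TUBB and YWHAZ. In N_12 the order of PPIA and TUBB was exchanged, with 574 CPM per kilobase for PPIA and 629 for TUBB. B2M spanned 51.6 to 328 CPM per kilobase over the 4 libraries. The order at the top depends on the length used, since with all annotated exons TUBB came first in DMSO at 433 CPM per kilobase, ahead of ACTB at 382.

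The ratio of 2 reference genes within a library does not depend on how libraries are scaled, so the 28 pairs were compared directly. Without B2M there were 21 pairs, and in 14 of them the ratios of the groups did not overlap. Among all pairs of genes whose mean reached 10 CPM this share was 56.4%, and the 21 pairs share their genes, so nothing particular to these genes is read from the count. Each of the 8 differences above 0.5 had TBP, ACTB or TUBB on one side and PPIA, HPRT1 or YWHAZ on the other. TBP, ACTB and TUBB lay higher relative to PPIA, HPRT1 and YWHAZ in N_12, with GUSB between them. The largest difference was that of TBP over YWHAZ, whose mean log2 ratio was higher by 0.62, or 1.54-fold. ACTB over YWHAZ had log2 ratios of -0.03 and -0.34 in the DMSO libraries against 0.36 and 0.52 in the N_12 libraries, also a difference of 0.62. A gene measured against YWHAZ would thus read 1.54-fold higher in N_12, relative to DMSO, than the same gene measured against ACTB. The differences between pairs were given no test of their own.

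Within each side the group means of the ratios were close. The sides were read from these same differences, so this follows from the grouping. ACTB over TBP differed by less than 0.01 between the group means, although single libraries varied (6.38 and 5.90 in DMSO, 6.18 and 6.10 in N_12). ACTB over TUBB was the most constant pair, at -0.07 and -0.16 in DMSO and -0.09 and -0.03 in N_12, with a standard deviation of 0.05 over the 4 libraries. HPRT1 over YWHAZ differed by 0.03 and PPIA over YWHAZ by 0.08 between groups. A constant ratio shows that 2 transcripts kept in step, not that either was level.

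Ranked by the mean standard deviation of a gene's log2 ratio to the others over the 4 libraries, a measure used to choose reference genes, B2M came last at 1.21. The other 7 had 0.36 to 0.45, a range set largely by their ratios to B2M. When B2M was left out, which was decided after its values were seen, TUBB, GUSB and PPIA had 0.22, 0.22 and 0.23, followed by ACTB (0.25), YWHAZ (0.26), HPRT1 (0.26) and TBP (0.29).

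**Figure D4:**
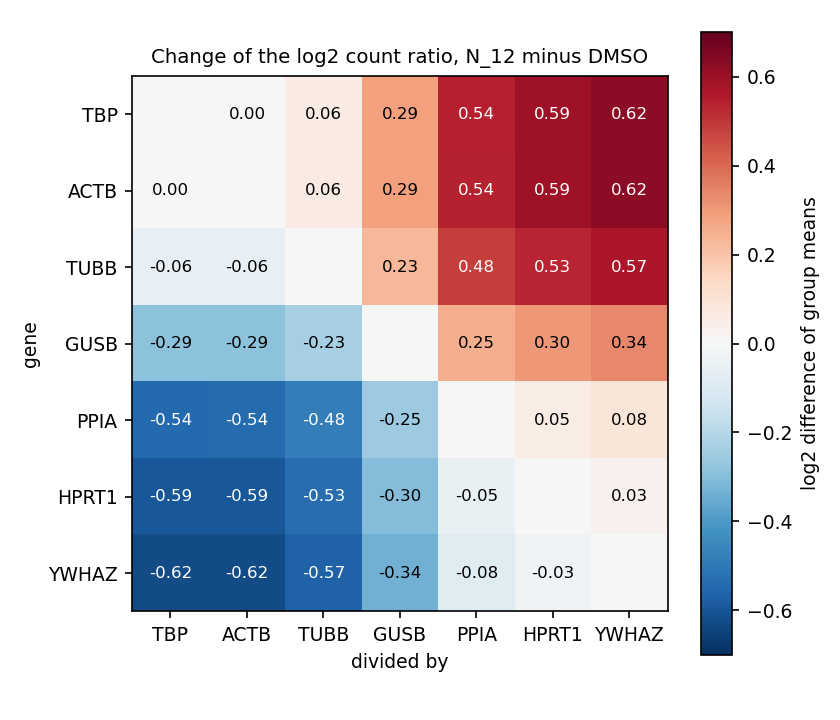
Difference between N_12 and DMSO in the mean log2 count ratio of the gene in the row over the gene in the column, for the 7 reference genes other than B2M. Red cells, up to 0.62, are ratios that were higher in N_12. The 3 genes TBP, ACTB and TUBB form a block against PPIA, HPRT1 and YWHAZ. The blocks were read from these same values, and cells within each block lie within 0.09 of 0.

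Used together the 7 genes other than B2M nearly cancelled. Their mean log2 CPM, centred on the 4 libraries, was 0.04, -0.01, -0.01 and -0.02 in DMSO replicates 1 and 2 and N_12 replicates 1 and 2. With B2M it was 0.19, -0.08, 0.09 and -0.20, so that the mean of 8 differed more between replicates than between groups. When libraries were scaled by the geometric mean of the 7 genes, the median log2 fold change of all tested genes was 0.04, 210 genes were called (1.49%, 88 higher, 0.624%, and 122 lower, 0.865%), and the same 4 members met the level rule. With the geometric mean of all 8, the median was 0.12, 252 genes were called (1.79%, 145 higher, 1.03%, and 107 lower, 0.759%), and no member met the level rule. Under TMM 317 genes were called, 116 higher and 201 lower.

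Over the 4 libraries the genes with at least 10 CPM whose centred log2 CPM lay nearest to the mean of the 8 members were TMEM70, GTF2H2C, ENSG00000272617, PPP2R5A and RHOA, at root mean square distances of 0.01 to 0.02. TMEM70, for example, was at 31.6 and 26.4 CPM in DMSO and at 29.3 and 23.9 CPM in N_12, the high-low pattern by replicate that B2M gave the mean. GTF2H2C has a near-identical paralog, so its counts are uncertain. Nearest to the mean of the 7 without B2M, a profile chosen after its values were seen, were SEC24D, TM7SF3, FLOT1, NARS2 and ABHD17A, of which SEC24D had 132 and 129 CPM in DMSO and 129 and 126 CPM in N_12. Nearest to B2M itself, likewise chosen afterwards, was MAP1S, a microtubule-associated protein, at 87.8 and 30.0 CPM in DMSO and 92.0 and 23.1 CPM in N_12. Its distance of 0.28 was far larger than those above.

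GAPDH, as the denominator, gave a different picture. It had 15852 and 13607 CPM in DMSO and 7351 and 7865 CPM in N_12, with both N_12 libraries far below both DMSO libraries. Its log2 fold change was -0.95 (SE 0.15, interval -1.29 to -0.61, adjusted p = 0.0237 by edgeR), and it was -1.06 to -0.84 when each library was left out. The call was lost without either N_12 library (-0.92 and -1.01), as was that of every other called gene. When libraries were scaled by their GAPDH counts, the median log2 fold change of all tested genes became 0.96, and 10926 genes (77.5%) were called, 10883 higher (77.2%) and 43 lower (0.305%). On this scale 7 of the 8 members were called higher, all but B2M, with log2 fold changes from 0.59 for YWHAZ to 1.22 for ACTB. PPIA, HPRT1, YWHAZ, GUSB and B2M changed sign against TMM, as dividing by GAPDH adds nearly the same amount to every log2 fold change.

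A list of 50 other genes used as references gave a wider view, all of them tested. Of these 6 were called lower (12.0%, beside 1.43% of all tested genes) and 0 higher, and 20 met the level rule (40.0%). The list includes GAPDH and was chosen with earlier results of these data known, so these shares describe the list only. The median log2 fold change was 0.04 and the median absolute value 0.31. Called lower were PGK1 (-1.53, SE 0.13) and GPI (-1.09, SE 0.13), which with GAPDH are enzymes of glycolysis, guanylate kinase GUK1 (-0.99, SE 0.15), and the ribosomal protein genes RPS18 (-0.91, SE 0.18) and RPL30 (-0.85, SE 0.14). LDHA (-0.55, adjusted p = 0.213 by edgeR), RPLP0, RPL13A, RPL32 and RPS13 also lay below 0 but were not called. The counts called were 15 with DESeq2 and 3 with limma-voom. By edgeR all 6 calls were lost without either N_12 library, as was that of every other called gene. Ribosomal protein genes have many pseudogene copies, so their counts are uncertain.

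Among the smallest in absolute log2 fold change of the 50 were CYC1 (0.02), EEF1A1 (0.03), C1orf43 (0.05) and ALAS1 (0.06). ALAS1, the first enzyme of heme synthesis, had 134 and 131 CPM in DMSO and 138 and 137 CPM in N_12, with an interval of -0.24 to 0.35. EEF1A1, a translation elongation factor, shows why a small mean difference is not enough. It had 7871 and 11632 CPM in DMSO and 8319 and 11618 CPM in N_12, with replicate 1 below replicate 2 in both groups, and its interval of -0.56 to 0.62 did not meet the level rule. CYC1 (-0.31 to 0.35) and C1orf43 (-0.30 to 0.40) met it.

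**Figure D5:**
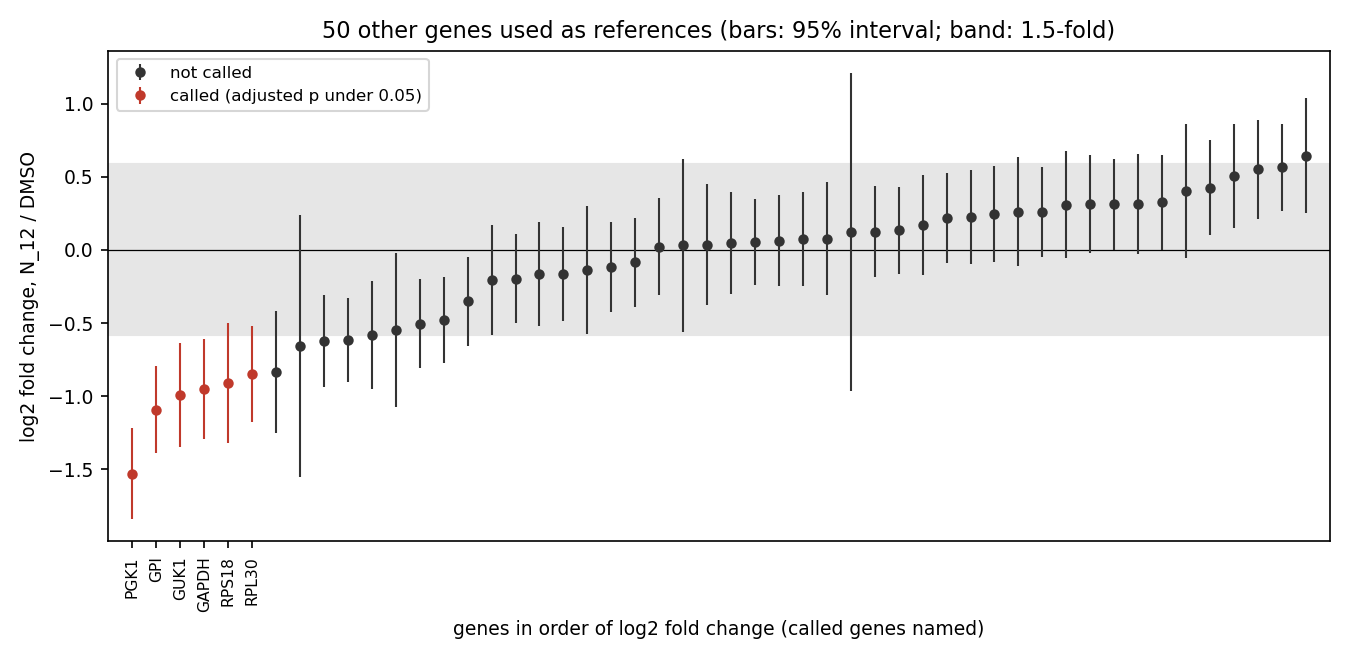
Log2 fold change of N_12 over DMSO with 95% intervals by edgeR for 50 other genes used as references, ordered by value, with the 6 called genes named and in red and the band marking 1.5-fold in either direction. PGK1 is lowest at -1.53, all red points lie below 0, and 20 of the bars lie inside the band.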

How the data were processed

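The members and gene lists were chosen with earlier results of these data known. RNA-seq libraries of HCT116 cells (2 DMSO, 2 N_12, grouped by sample title) were prepared with an mRNA kit, per the labels' protocols. The authors deposited raw whole-number counts for each gene. No aligner, counter or strand setting is given in the sources used here. Mouse builds (GRCm38, mm10) are named in the submitters' processing notes, whereas the identifiers are human Ensembl genes, so no coordinates of the counted genes are given. Symbols matched 20148 of 20263 identifiers.

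Counts were analysed on the whole table in R 4.3.3 with edgeR 4.0.16: expression filter with groups, TMM scaling, robust quasi-likelihood fit without a replicate term, two-sided, adjusted p threshold 0.05. Standard errors came from the fold change and F statistic, and intervals are 95%. CPM use TMM-scaled totals; summed marker levels use total counts. The procedure was tested on simulated data. There 7 of 50 genes changed 1.5-fold were called, 27 of 50 changed 2-fold, and 48 of 49 at 4-fold and at 8-fold. Of 13779 unchanged genes 30 were called and 3927 met the level rule, as did 1 of the 50 changed 1.5-fold. Alternatives were other scalings, filters and dispersions, a replicate block, leaving out each library, limma-voom (limma 3.58.1) and DESeq2 1.42.0. Scaling without B2M and the crossed block were added after the data were seen. Named by rule were the 8 members, GAPDH, the 5 smallest and 5 largest differences among other references, up to 3 called genes per family list or else its most abundant gene, and the 5 nearest profiles, of which some genes are not reported here. Other list genes were named after their values were seen.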

Additional observations from a re-analysis of the deposited data

How the results depend on the processing

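Under the other scalings by RLE size factors, upper quartile factors and total counts, under both other filters, and with limma-voom, DESeq2 and non-robust dispersions, no member was called and 3 or 4 of 8 met the level rule. The direction of ACTB, TBP, TUBB, PPIA, HPRT1 and YWHAZ was kept in these settings. GUSB turned to 0.025 with total counts, to 0.013 with the 7 reference genes other than B2M and to 0.11 with all 8. Scaling by the GAPDH count turned or raised every member (B2M 0.50, GUSB 0.93, HPRT1 0.64, PPIA 0.67 and YWHAZ 0.59 turned, ACTB 1.22, TBP 1.20 and TUBB 1.16 became called). It left 7 members called, 0 level, 10926 genes called in all and 40 other reference genes called, since the fall of GAPDH is added to every gene. With the 8 reference genes as the scale 0 were level and 2 other reference genes were called, and GAPDH lost its call (-0.82, adjusted p = 0.158 by edgeR). With a margin of 0.32 on the log2 scale 0 of 8 and with 2-fold 7 of 8 were level.

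The count of all called genes, 317 under the settings of the report, was 131 with limma-voom, 131 with non-robust dispersions, 1225 with DESeq2 and 210 when scaled by the 7 reference genes. Other reference genes called, 6 in the report, were 3, 3 and 15 with the first 3 of these. When each library was left out, the counts ranged from 0 to 451 for all genes, from 0 to 6 for other reference genes and from 0 to 3 for level members. No member was called in any of these 4 fits. B2M ranged from -2.05 to 0.60 and GUSB from -0.14 to 0.11, both changing sign, and GAPDH from -1.06 to -0.84. The call of GAPDH was lost at -0.92 and -1.01. These were the fits without either N_12 library, where every other call was lost too. The cause of these changes was not tested.

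Replicate numbers are shared by the groups, but the labels do not say that they mark a shared batch. Across tested genes the replicate differences of the 2 groups had r = -0.09, and r = -0.17 for those with at least 10 CPM. With the replicate block 963 genes, 11 other reference genes and 1 member were called, B2M at -0.67 (adjusted p = 0.0151 by edgeR), and 1 member, GUSB, was level. With the numbers of the N_12 libraries crossed, 28 genes were called. The 2 libraries per group limit the precision for all members, and whether depth also limits it for TBP, HPRT1 and GUSB, the members with the fewest counts, was not tested.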
